A study of Rattus norvegicus with 6 samples.

Results

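The thrombospondin and CCN genes encode matricellular proteins, secreted proteins that sit in the extracellular matrix (ECM) and act on cells and growth factors rather than building fibres. Their members were taken by name from the deposited matrix of right ventricular (RV) RNA sequencing: Thbs1, Thbs2, Thbs3, Thbs4 and Comp of the thrombospondin family, and Ctgf, Cyr61, Nov, Wisp1 and Wisp2 of the CCN family, whose present symbols are Ccn2, Ccn1, Ccn3, Ccn4 and Ccn5. Of these 10 genes, 8 had values among the 12958 named genes, and Thbs3 and Wisp1 are not analysed here. The group was chosen by measured values of this contrast, since Thbs4, Thbs1 and Ctgf were higher in SuHx, so the differences between SuHx and control are described below for all members without a p-value, and where a member is said to pass or miss the threshold used for all genes, that too is a description fixed in part by this choice.

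The comparison was of 2 groups of 3 RV libraries from male Sprague-Dawley rats: untreated healthy control rats at week 0 and SuHx rats at 8 weeks, which the submitters call decompensated. SuHx rats received a subcutaneous injection of SU5416, a VEGF receptor inhibitor, followed by normobaric hypoxia and a return to normoxia. No control of the later age is among these libraries, so age, SU5416, hypoxia and pressure load cannot be told apart in any difference given here. Letters (A, B and C) name the SuHx libraries, whose columns could not be matched to the numbered rats of the labels. Values are counts per gene that the authors normalised with DESeq2, called normalised counts here, and they summed to between 11607609 and 12393415 in the control libraries and between 12754296 and 18249330 in the SuHx libraries. Whether every sample is another rat is not stated, and standard errors and p-values therefore measure only how these libraries spread, which may be technical.

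As background, thrombospondins 1 and 2 form trimers and carry the type 1 repeats that bind CD36, whereas thrombospondins 3 and 4 and COMP form pentamers without these repeats. Thrombospondin 1 releases TGF-beta from its latent complex, and in mice thrombospondin 4 is made by stressed heart muscle, where it travels through the endoplasmic reticulum with the sensor ATF6. CCN proteins bind integrins, heparan sulphate and growth factors, and CTGF and CYR61 are among the best known targets of the mechanically regulated factors YAP and TAZ, which bind DNA through TEAD proteins. CTGF is used as a marker of fibrosis in the heart, and CYR61 is also an immediate early gene, one induced within minutes by serum or stress.

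The upstream sequence is shown for the members whose differences the results turn on. Ctgf and Cyr61 share the TEAD motif there and had log2 fold changes of opposite sign, though the groups overlapped for Cyr61. Each window holds the 250 bases before the annotated start in the RefSeq promoter table of the assembly GRCr8, which held 5 of the 8 members with values, and the capitals mark GGAATG or, where the match lies on the other strand, CATTCC. The windows lie at chr1:22624615-22624864 for Ctgf, at chr2:237225690-237225939 for Cyr61 and at chr2:25760346-25760595 for Thbs4, all on the minus strand, and at chr3:125510000-125510249 on the plus strand for Thbs1.
Ctgf: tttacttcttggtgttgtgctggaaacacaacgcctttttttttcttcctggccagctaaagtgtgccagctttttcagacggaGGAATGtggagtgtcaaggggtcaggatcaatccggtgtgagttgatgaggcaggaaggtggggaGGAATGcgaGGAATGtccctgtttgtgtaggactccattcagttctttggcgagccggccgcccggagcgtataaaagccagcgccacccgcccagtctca
Cyr61: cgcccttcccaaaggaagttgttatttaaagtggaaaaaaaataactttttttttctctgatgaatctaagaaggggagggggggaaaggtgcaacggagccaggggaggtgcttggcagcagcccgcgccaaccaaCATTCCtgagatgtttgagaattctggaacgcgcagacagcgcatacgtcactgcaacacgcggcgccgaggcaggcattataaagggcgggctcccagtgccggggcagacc
Thbs1: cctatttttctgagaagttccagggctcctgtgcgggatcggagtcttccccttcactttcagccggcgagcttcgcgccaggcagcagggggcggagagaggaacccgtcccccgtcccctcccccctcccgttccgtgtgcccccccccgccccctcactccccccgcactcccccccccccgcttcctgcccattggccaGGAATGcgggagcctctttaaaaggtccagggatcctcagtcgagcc
Thbs4: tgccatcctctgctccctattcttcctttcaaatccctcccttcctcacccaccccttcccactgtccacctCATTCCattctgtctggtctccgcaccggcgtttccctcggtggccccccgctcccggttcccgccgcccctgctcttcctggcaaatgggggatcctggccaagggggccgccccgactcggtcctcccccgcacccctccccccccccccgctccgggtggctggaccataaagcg
The Ctgf window held 3 matches, which begin 166, 101 and 92 bases before the start. Cyr61, Thbs1 and Thbs4 held 1 match each, at 113, 47 and 178 bases, and Comp held none. Of the 33469 promoter windows of this length, 12.1% held at least 1 match on either strand and 0.0807% held 3 or more. The AP-1 motif TGANTCA (in 6.34% of windows) and the CArG box, the binding motif of SRF (in 1.5%), were searched on both strands and matched in none of the 5 windows. TATAAA, in 12.9% of windows, matched in Ctgf and Cyr61 only, at 31 and 34 bases before the start. The motifs do not overlap each other. A match is a description of the letters and no evidence of binding.

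Among the thrombospondins, Thbs4 had the largest difference between the groups. Thbs4 had 69.6, 11.5 and 9.93 normalised counts in control libraries 1 to 3, while SuHx A to C had 969, 1195 and 955. The groups did not overlap, and the lowest SuHx library lay 13.7-fold above the highest control. The mean was 30.3 ± 34 in control and 1040 ± 135 in SuHx (SD, n = 3 each), a ratio of means of 34.3. The log2 fold change, here and below of normalised count + 1, was 5.61 (standard error 0.66), the 7th highest of 10725 genes tested. The SuHx libraries differed little among themselves, by 0.32 log2 units between the lowest and the highest, and 38.3% of tested genes had a narrower SuHx range. The control libraries spanned more than those of 96.3% of tested genes, because control 1 stood above the other controls.

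Thbs1, whose product activates latent TGF-beta and restrains the growth of vessels, had 225, 246 and 394 normalised counts in control libraries 1 to 3, while SuHx A to C had 673, 799 and 849.7. Every SuHx library again lay above every control, though the gap was small, with the lowest SuHx library 1.71-fold above the highest control. The log2 fold change was 1.46 (standard error 0.23), with means of 288 ± 92.3 in control and 774 ± 90.8 in SuHx (SD, n = 3 each).

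Thbs2, the other trimeric thrombospondin, had 581, 513 and 358 normalised counts across the controls and 464.5, 739 and 581 across SuHx. The groups overlapped, and the log2 fold change of 0.30 (standard error 0.24) was -0.020 with all libraries scaled to the same total, a scaling that moved the median of all genes from 0.0095 to -0.31. Set against Thbs2 within each library, Thbs4 had ratios of 0.12, 0.022 and 0.028 in the controls and of 2.09, 1.62 and 1.64 in SuHx. The ratio of Thbs1 to Thbs2 was 0.387, 0.48 and 1.10 in the controls and 1.45, 1.08 and 1.46 in SuHx, so that control 3 lay inside the range of the SuHx libraries. A ratio of this kind does not depend on a scale factor shared by a library, and its size carries the unequal lengths of the transcripts, so only its change between libraries is read.

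Comp, a pentameric thrombospondin known from cartilage and tendon and also expressed by fibroblasts that make scar matrix, had low values. It had 12.3, 4.17 and 3.97 normalised counts across the controls and 12.4, 9.46 and 46.7 across SuHx. Only SuHx C was clearly above the controls, and the groups overlapped at control 1. The log2 fold change was 1.43 (standard error 0.75), and the mean over the other 5 libraries was 8.46, below the mean of 10 that a gene needed for testing, so Comp was tested through SuHx C alone. Other genes of tendon and cartilage were listed for comparison. Of the 7 with values, 3 were tested and none passed in limma at an adjusted p under 0.05 or an unadjusted p under 0.05. Scx, a transcription factor of tendon cells, had 33.5, 47.9 and 45.9 normalised counts across the controls and 29.5, 13.8 and 48.6 in SuHx.

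**Figure D1:**
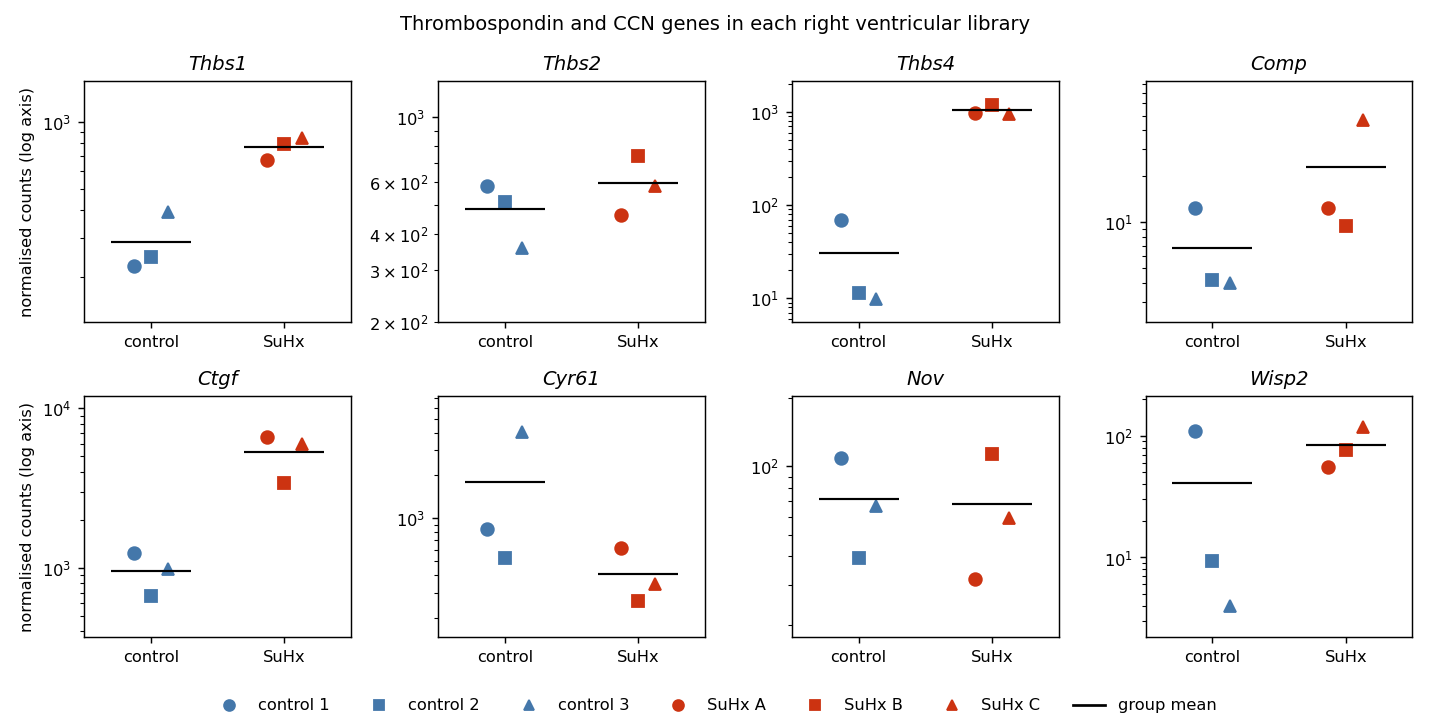
Normalised counts of the 8 members in each of the 6 libraries, on log axes with a separate range for each gene; blue symbols are control, red symbols SuHx, and black lines the group means. The SuHx libraries lie above all controls for Thbs1, Thbs4 and Ctgf, control 1 stands high for Thbs4 and Wisp2, and control 3 stands high for Cyr61.

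Of the CCN genes, Ctgf differed most clearly. Ctgf, a matricellular protein induced by TGF-beta and by mechanical load, had 1231, 663 and 985 normalised counts in control libraries 1 to 3, while SuHx A to C had 6639, 3395 and 5998. No control came near the SuHx range, the lowest SuHx library being 2.76-fold above the highest control. The log2 fold change was 2.46 (standard error 0.32) and the ratio of means 5.57. SuHx B was the lowest of its group, and the SuHx range of 0.97 log2 units was wider than that of 85.6% of tested genes.

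Cyr61, which shares the regulation by YAP with Ctgf, did not follow it. It had 834, 522 and 4034 normalised counts across the controls and 616, 262 and 343 across SuHx. The log2 fold change was -1.66 (standard error 0.72), with the groups overlapping through SuHx A, which lay above control 2. Control 3 held by far the highest value, and without it the log2 fold change was -0.79. With controls 1 and 3 both left out it was -0.45. Control 3 also held the immediate early genes Fos (4412 normalised counts, where controls 1 and 2 had 607 and 101) and Egr1 (8152, where they had 1446 and 600.05). The 18 immediate early genes with values summed to 32730 normalised counts in control 3, to 5122 and 7073 in the other controls and to between 4512 and 6871 in SuHx, and none was at 0 in any library. Their part in the Cyr61 value was not tested. Of these 18 genes, 0 were higher and 0 lower in limma at an adjusted p under 0.05 (2 and 0 by unadjusted p under 0.05). Egr1 had a log2 fold change of -2.01 (limma adjusted p = 0.30), and Dusp1, a phosphatase induced with it, one of -0.72 (limma adjusted p = 0.51).

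The balance of Ctgf and Cyr61 within a library separated the groups whether or not control 3 was counted. The ratio of Ctgf to Cyr61 was 1.48, 1.27 and 0.244 in controls 1, 2 and 3 and 10.8, 13 and 17.5 in SuHx A, B and C. The SuHx libraries therefore lay above controls 1 and 2 as well as control 3. This ratio contains Ctgf, by which the members were chosen, and is given without a test.

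**Figure D2:**
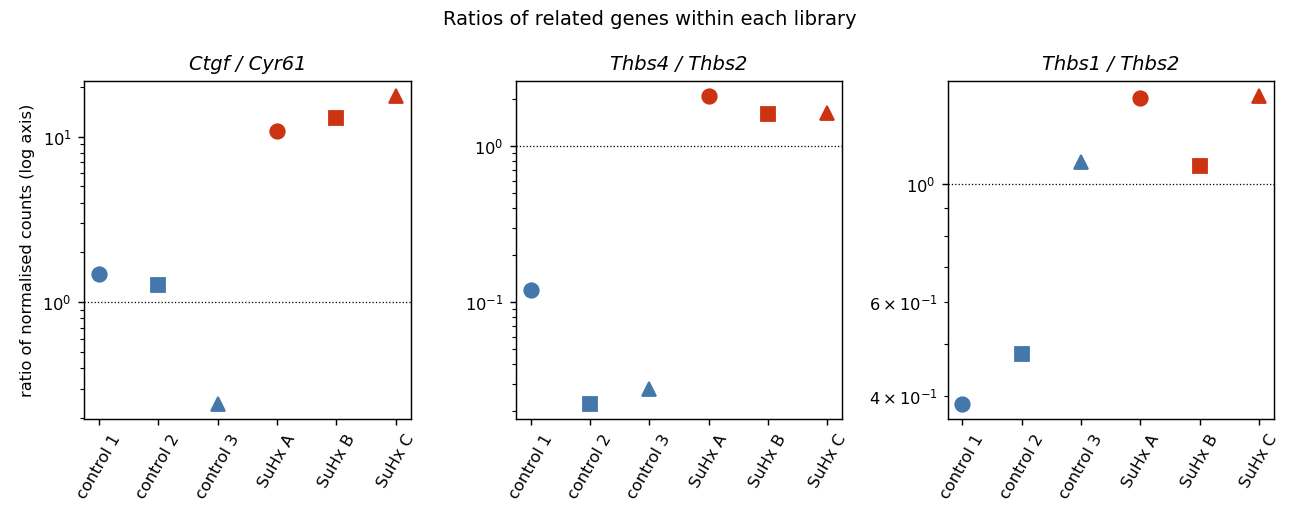
Ratio of normalised counts of 2 related genes in each library, on log axes; blue symbols are control and red symbols SuHx, and the dotted line marks a ratio of 1. Ctgf over Cyr61 runs from 0.244 to 1.48 in control and from 10.8 to 17.5 in SuHx, whereas Thbs1 over Thbs2 overlaps between the groups.

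Nov and Wisp2 showed no separation of the groups. Nov, a CCN protein with growth-restraining effects in several cell types, had 109, 39.6 and 66.6 normalised counts across the controls and 31.7, 114 and 59.1 across SuHx. Its log2 fold change was -0.14 (standard error 0.52). The sign depended on the libraries, with 0.58 when controls 1 and 3 were left out together and -0.60 without SuHx B. Wisp2, a CCN protein that lacks the C-terminal cystine knot of the others, had 109.8, 9.38 and 3.98 normalised counts across the controls and 55.8, 75.8 and 118 across SuHx. Its log2 fold change of 2.17 had a standard error of 1.04. All SuHx libraries lay above controls 2 and 3, and control 1 lay within the SuHx range. Without control 1 the log2 fold change was 3.48 and the gene passed an adjusted p under 0.05, which it did in no other alternative.

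Control 1 held the highest control value of Wisp2, Thbs4, Comp, Nov, Ctgf and Thbs2. For Ctgf and Thbs2 the next control lay close, with 1231 against 985 and 581 against 513 normalised counts. How often control 1 was the highest control over all genes was not counted. Control 1 also held genes of atrial muscle. The atrial genes Nppa, Myl4, Myl7, Sln, Bmp10 and Mybphl summed to 51570 normalised counts in control 1, against 78.1 and 86.3 in controls 2 and 3 and between 15530 and 17550 in SuHx. In SuHx this sum was nearly all Nppa, a natriuretic peptide of atria that stressed ventricles also make, while Myl4, the atrial light chain, was at 9629 normalised counts in control 1 and between 15.6 and 58.1 in every other library, and Bmp10 was listed at 0 in every library but control 1. Fmod, a matrix proteoglycan, was at 202 normalised counts in control 1 and 39.6 and 33.7 in the other controls. The 11 fibroblast marker genes used below summed to 33650, 24290 and 20590 in controls 1, 2 and 3. The 7 tendon and cartilage genes, Fmod among them, summed to 351, 159 and 144, and the 6 neural and Schwann genes to 386, 169 and 263. Sums of endothelial and platelet genes were highest in control 3 instead. The part of atrial tissue or of these cell types in the control 1 values was not tested. Against controls 2 and 3 alone, Thbs4 had a log2 fold change of 6.47, Ctgf one of 2.67 and Thbs1 one of 1.30.

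**Figure D3:**
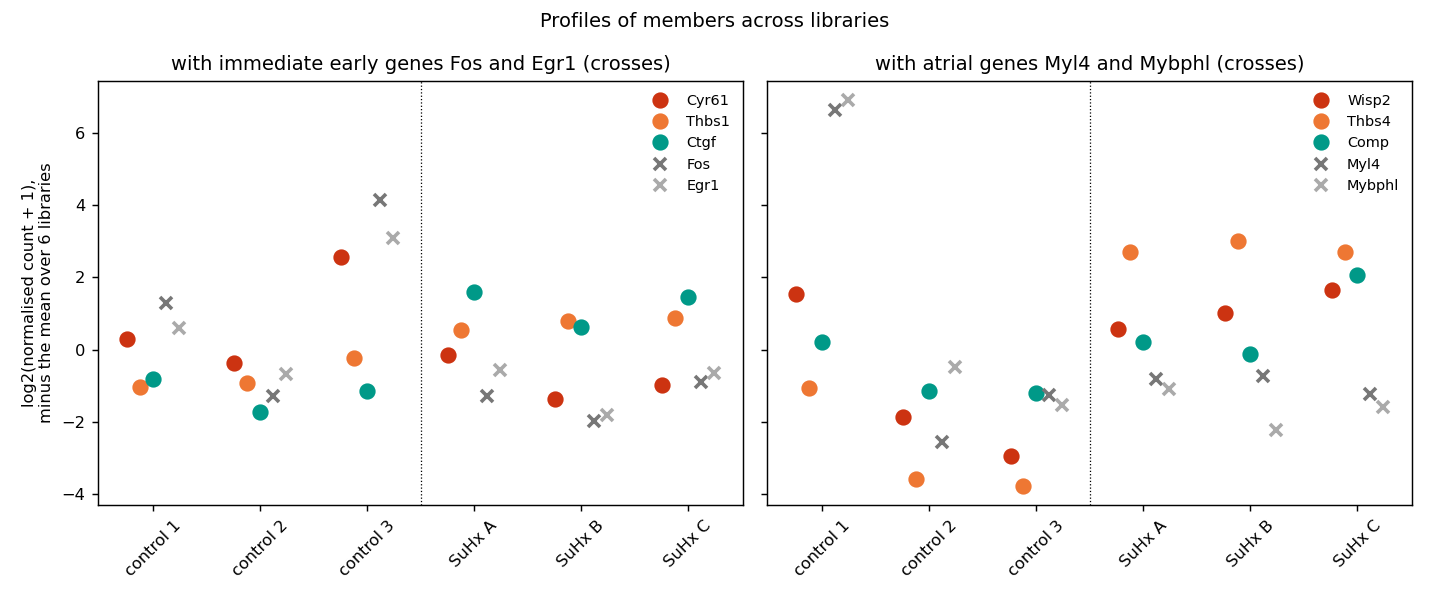
log2(normalised count + 1) minus the mean over the 6 libraries, for Cyr61, Thbs1 and Ctgf beside Fos and Egr1 (left) and for Wisp2, Thbs4 and Comp beside the atrial genes Myl4 and Mybphl (right); circles are members and crosses the other genes. Cyr61, Fos and Egr1 peak in control 3 but Ctgf does not, and Wisp2 is higher in control 1, where the atrial genes peak, than in controls 2 and 3.

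Over the 8 members tested, 3 were higher and 0 lower in SuHx by limma (adjusted p under 0.05) against 1.55% of all genes tested that were called higher, 0.671% called lower and 2.22% called either way. By unadjusted p under 0.05 the members again gave 3 and 0, against 9.61% of all genes tested that were higher and 7.59% that were lower, the shares to set beside the unadjusted counts of the lists. The 3 are Thbs4, Thbs1 and Ctgf, by which the group was chosen, so the count says nothing further. SuHx lay wholly above control for the same 3 members and wholly below for 0, against 12.9% and 11.6% of all genes tested, or 24.6% in either direction. The median log2 fold change, 1.45 over the 8 members and 0.0095 over all genes, is likewise set by that choice and by the filter, since it lies between the values of Thbs1 and Comp. The calls rested on few libraries: without SuHx A or without SuHx C no member was called, and without SuHx B Ctgf alone was. Calls over all genes fell too, from 166 higher to 34, 36 and 11 without SuHx A, B and C. In these 3 settings the log2 fold change was 5.65, 5.5 and 5.66 for Thbs4, 2.28, 2.76 and 2.35 for Ctgf, and 1.56, 1.43 and 1.39 for Thbs1. Thbs1 was not called without control 1 or without control 2 either, nor with all libraries at the same total or without a mean-variance trend.

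**Figure D4:**
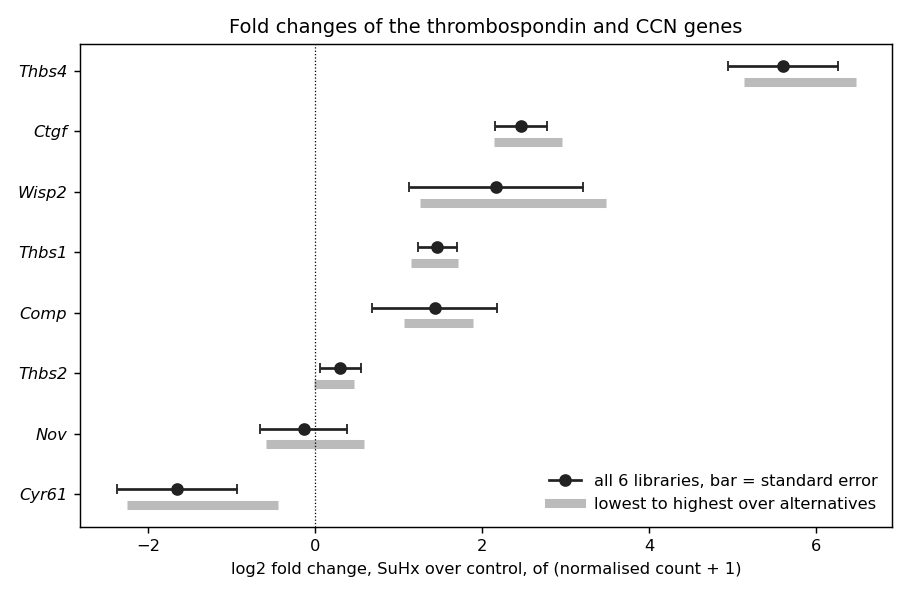
log2 fold change of each member between SuHx and control with its standard error (black) and the lowest to highest value over all alternative settings (grey bars). Thbs4, Ctgf, Wisp2, Thbs1 and Comp stayed above 0 and Cyr61 below 0 in every setting in which they were tested, while the bars of Thbs2 and Nov cross 0.

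The cell types that make or carry these proteins were read from marker lists. In bulk tissue, fewer cells of a type and less RNA per cell cannot be told apart. Every library held heart muscle markers, though their list was not chosen to tell ventricle from atrium. Control 1 held the atrial genes given above as well. The 8 cardiomyocyte genes summed to between 649700 and 742700 normalised counts in control and between 466700 and 515300 in SuHx. Myh6, the adult alpha myosin heavy chain of the rat, was lower in SuHx (log2 fold change -1.29, limma adjusted p = 0.043). Its mean was 361400 in control and 148850 in SuHx, so the sums differed largely through Myh6. Over the 8 genes the median log2 fold change was 0.085. SuHx lay wholly above control in 2 of them and wholly below in 3, against 12.9% and 11.6% of all genes tested. The 11 fibroblast genes summed to between 20590 and 33650 in control and between 27350 and 29100 in SuHx, with overlap, a sum made mostly of Col3a1 and Dcn. Of these 11 genes 1 was higher and 0 lower (1 and 1 by unadjusted p under 0.05): Pi16 had a log2 fold change of 1.85 (limma adjusted p = 0.038), and Tcf21, a transcription factor of resident fibroblasts, one of -0.93 (limma adjusted p = 0.23). The 6 genes of activated fibroblasts summed to 330, 206 and 209.5 in control and to 2877, 1500 and 2765 in SuHx, an order (A and C above B) also seen in Ctgf. In SuHx this sum was made mostly of Cilp and Ltbp2, and Cthrc1 among the 6 was highest in SuHx B. How often SuHx B was the lowest SuHx library over all genes was not counted. Of the 5 tested genes of activated fibroblasts 2 were higher, Cilp with a log2 fold change of 3.38 (limma adjusted p = 0.016) and Postn, and Ltbp2 among them was listed at 0 in control 3. These calls depended on single libraries: Myh6 failed the threshold without any one library but control 3, Pi16 without any one but control 1, and Cilp without control 2, SuHx A or SuHx C (limma adjusted p = 0.051 to 0.18). Thbs1 is carried by platelets and macrophages too. The 6 platelet genes summed to 144, 84.2 and 400 in controls 1, 2 and 3 and to between 81.5 and 130 in SuHx, with Gp9 and Tubb1 listed at 0 in at least 1 library, so that control 3, which had the highest Thbs1 of the controls, had the highest platelet sum. The 8 macrophage genes summed to between 767 and 1247 in control and to 841, 2290 and 2264 in SuHx A, B and C. The part of these cells in the values of the members was not tested.

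Receptors of thrombospondins and CCN proteins did not pass the test. Of 18 tested receptors, 0 were higher and 0 lower by limma (adjusted p under 0.05) (3 and 0 by unadjusted p under 0.05), and the median log2 fold change was 0.26. SuHx lay wholly above control in 6 of the 18 and wholly below in 0, against 12.9% and 11.6% of all genes tested. Itgb1, the beta-1 integrin chain shared by most matrix receptors of heart cells, was at 3593, 3836 and 3492 normalised counts in control and 5293, 5868 and 6385 in SuHx, and these groups did not overlap (log2 fold change 0.68, limma adjusted p = 0.056). Cd36, the receptor of the type 1 repeats and a fatty acid transporter of heart muscle, was at 8814, 10548 and 6107 in control and 5815, 8104 and 7474 in SuHx (log2 fold change -0.23, limma adjusted p = 0.66). Itgav, the alpha-v chain that binds latent TGF-beta, was named after its values were seen, with 302, 309 and 71.5 normalised counts in control and 351, 489 and 529 in SuHx (limma adjusted p = 0.30).

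In the TGF-beta pathway, which thrombospondin 1 activates and which induces Ctgf, 2 of 17 tested genes were higher and 0 lower by limma (adjusted p under 0.05) (5 and 2 by unadjusted p under 0.05), and the median log2 fold change was 0.33. SuHx lay wholly above control in 5 of the 17 and wholly below in 1, against 12.9% and 11.6% of all genes tested. Tgfb2, a ligand, was at 279.7, 83.3 and 93.2 normalised counts in control and 1201, 616 and 1309 in SuHx, a log2 difference of 2.92 ± 0.50 (SE; limma adjusted p = 0.034). As for Ctgf, SuHx B was the lowest of the SuHx libraries and control 1 the highest control, an order whose share over all genes was not counted. Smad7, an inhibitor induced by the pathway, had a log2 difference of 0.79 ± 0.14 (SE; limma adjusted p = 0.042). Tgfb1, the ligand that thrombospondin 1 is best known to activate, was named after its values were seen: it was at 191, 188 and 403 normalised counts in control and 406, 337 and 428 in SuHx (limma adjusted p = 0.32). Ltbp2, an elastic fibre protein of the latent TGF-beta binding family, was at 68.6, 25.0 and 0 in control and 1050, 782 and 1267 in SuHx and did not pass (limma adjusted p = 0.068), and the 0 in control 3 can be a failed estimate.

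Of the kinases, cofactors and DNA-binding factors that control YAP, TAZ and SRF, 0 of 19 tested genes were higher and 0 lower by limma (adjusted p under 0.05) (6 and 0 by unadjusted p under 0.05). SuHx lay wholly above control in 7 of the 19 and wholly below in 0, against 12.9% and 11.6% of all genes tested. Nf2, an upstream activator of the Hippo kinases, had a log2 fold change of 0.50 (limma adjusted p = 0.17), and Rhoa, a GTPase of the actin skeleton, one of 0.32 (limma adjusted p = 0.24). Among 13 tested genes of a list of YAP targets without Ctgf and Cyr61, 2 were higher and 0 lower (3 and 2 by unadjusted p under 0.05), and the median log2 fold change was 0.70. Ankrd1, a stretch-responsive ankyrin repeat protein of heart muscle, was at 25556, 25792 and 13500 normalised counts in control and 106480, 71886 and 79319 in SuHx (log2 fold change 2.03 ± 0.30 SE, limma adjusted p = 0.025). Gadd45a, a stress-induced growth arrest gene, had a log2 difference of 1.32 ± 0.20 (SE; limma adjusted p = 0.026). Amotl2, a YAP target that also restrains YAP and that was named after its values were seen, lay the other way, with 862, 760.5 and 812 in control and 511, 536 and 542 in SuHx (log2 fold change -0.61, limma adjusted p = 0.060). Of the 13 targets, 4 had SuHx wholly above control and 2 wholly below, to be set beside the same shares of all genes tested.

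Of the ATF6 and endoplasmic reticulum chaperone genes, listed because of the link of thrombospondin 4 to ATF6 in mice, 0 of 18 tested were higher and 0 lower by limma (adjusted p under 0.05) (0 and 1 by unadjusted p under 0.05). The median log2 fold change was -0.011. Hspa5, the main chaperone of the compartment, was at 4571, 4194 and 3282 normalised counts in control and 3580, 4003 and 3674 in SuHx (log2 fold change -0.086, limma adjusted p = 0.83), and Canx, a lectin chaperone, had a log2 fold change of 0.17 (limma adjusted p = 0.72). Proteases that cut thrombospondins and matrix proteins or growth factors that bind them likewise gave 0 higher and 0 lower of 14 tested (1 and 2 by unadjusted p under 0.05). Dcn, a small proteoglycan that binds CTGF, had a log2 fold change of 0.031 (limma adjusted p = 0.96), and Vegfa, a growth factor bound by CTGF and thrombospondin 1, one of -0.23 (limma adjusted p = 0.59). Of 13 other matricellular genes, 2 were higher and 0 lower (4 and 0 by unadjusted p under 0.05). SuHx lay wholly above control in 0 chaperone, 0 protease and partner and 4 matricellular genes, and wholly below in 1, 2 and 0. The shares over all genes tested were 12.9% above and 11.6% below. Spp1, which encodes osteopontin, was at 26.8, 19.7 and 4.08 normalised counts in control and 116, 492 and 255 in SuHx (log2 fold change 4.10 ± 0.73 SE, limma adjusted p = 0.039). Postn, which encodes periostin, was at 49.4, 19.8 and 20.8 in control and 118, 89.4 and 123 in SuHx (log2 fold change 1.96 ± 0.37 SE, limma adjusted p = 0.047). Tgfb2, Smad7, Ankrd1, Gadd45a, Spp1 and Postn failed the threshold without SuHx A, without SuHx B, without SuHx C and without a mean-variance trend (adjusted p = 0.051 to 0.21). Without control 2 Ankrd1 alone passed, without control 1 Smad7 did not, and without control 3 Postn did not. Scaled to the same total, Smad7, Gadd45a and Postn did not pass, and the log2 fold change of Smad7 was 0.47.

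**Figure D5:**
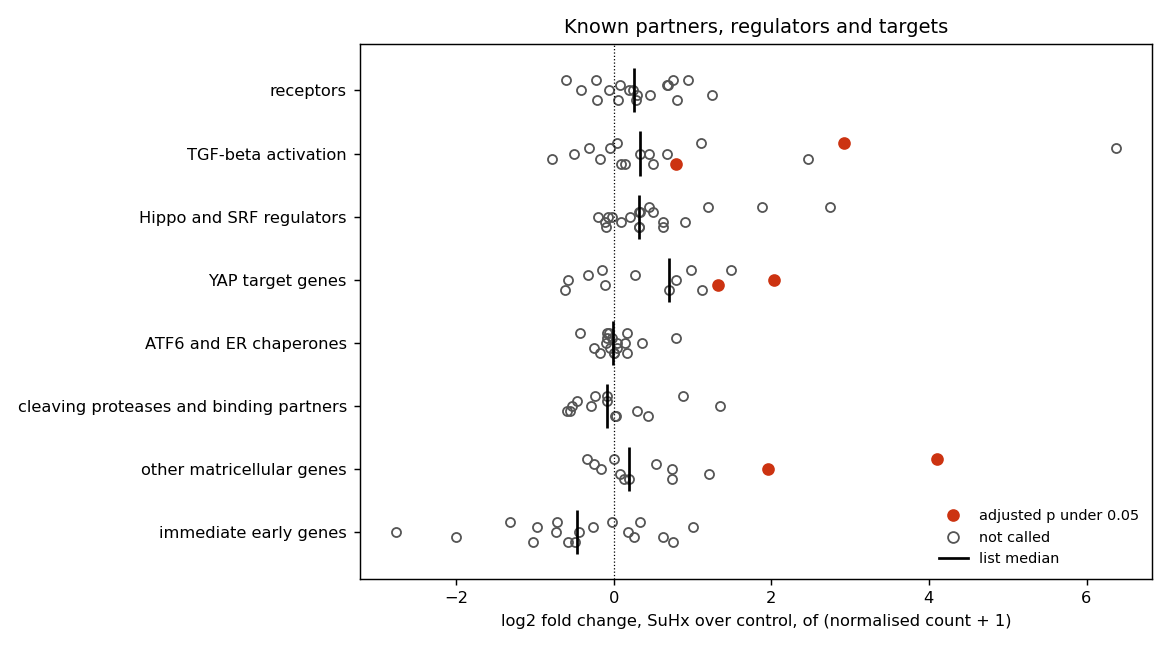
log2 fold change between SuHx and control of each tested gene in 8 lists of receptors, regulators, targets and partners; filled red circles passed an adjusted p under 0.05 from limma, open circles did not, and black lines are list medians. The 6 genes that passed are Tgfb2, Smad7, Ankrd1, Gadd45a, Spp1 and Postn, while the chaperone genes crowd around 0.

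The genes whose values were most like those of a member were found by the root mean square difference between log2 values centred on each gene's mean over the 6 libraries, among genes averaging 50 or more normalised counts. Likeness to the member in the values below therefore follows from this choice. For Thbs1 these were Stc1 (0.152 log2 units), Tgm2 (0.174) and Fuca1 (0.190). Tgm2, a crosslinking enzyme of the ECM, was at 1909, 2274 and 2749 normalised counts in control and 6476, 6056 and 6183 in SuHx. For Ctgf they were Tmem151a (0.370), Nmrk2 (0.372) and Fam167a (0.373), of which Nmrk2, a muscle enzyme of NAD synthesis, was at 105, 116 and 162 in control and 820.4, 506 and 610.3 in SuHx. For Thbs4 the differences were larger, 0.992 for the adhesion molecule gene Ncam1 and 1.05 for Cyp1b1 and Gorasp2. Ncam1 was at 314, 107 and 120.4 in control and 1929, 2332 and 2506 in SuHx, with control 1 above the other controls as for Thbs4, while Gorasp2 was listed at 0 in every control. For Comp they were Axl (0.470), the fibroblast gene Pi16 (0.475) and Apba1 (0.507). Pi16 was at 300.2, 177 and 187 in control and 614, 624 and 1226 in SuHx, with its highest value, like that of Comp, in SuHx C.

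Genes of very long transcripts were read beside the members, since long and short transcripts are lost unequally as RNA degrades. Among 15 tested, 2 were higher, Utrn with a log2 fold change of 2.89 (limma adjusted p = 0.028) and Ahnak2 with 1.08 (limma adjusted p = 0.027), and 0 lower (8 and 0 by unadjusted p under 0.05). Both failed the threshold without control 1 and without each SuHx library in turn (limma adjusted p = 0.063 to 0.14). Utrn also failed without a mean-variance trend, and Ahnak2 without control 2 and at the same total, where its log2 fold change was 0.76. The median of the 15 genes, set against that of 63 ribosomal protein genes to describe RNA quality, was -0.30, -0.14 and -0.63 log2 units in controls 1, 2 and 3 and 0.080, 0.47 and 0.57 in SuHx A, B and C. The groups did not overlap (difference 0.73, exact permutation p = 0.1, two-sided, the smallest that 3 against 3 allow). By this measure SuHx A was lowest and C highest, an order shared by Thbs1 but not by Ctgf or Thbs4, and among the controls the order was that of none of the 3 genes. Its part in the values of the members was not tested.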

How the data were processed

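RNA sequencing libraries of the RV of control (week 0) and SuHx (8 weeks) rats, 3 each, were used. Per the labels and the supplementary methods, reads were mapped and counted with Salmon 0.14.1 on an index of the mouse build GRCm38.p6, and counts were normalised with DESeq2 1.24.0; since the gene names include rat names, the index behind the values is uncertain. The authors deposited these normalised counts as a signal per gene, 1 column per library. Low values did not fall on 1 step per library, so reads were not rebuilt, no count model was run and the depth in reads is not given. A nameless entry, 0.00143% to 0.00514% of a library, was left out.

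Genes averaging 10 or more over the 6 libraries (10725) were compared on log2(normalised count + 1) in limma 3.58.1 (R 4.3.3), two-sided, using trended moderation of the variances, with Benjamini-Hochberg adjustment over all genes tested and calls at an adjusted p under 0.05. The fold change understates the change of low genes. The procedure was tested on simulated data.

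The members, the lists and the rules were chosen with earlier results of these data known. Named were all members, up to 4 called genes of each list by absolute log2 fold change or, with none called, the 2 of highest mean, the 3 nearest patterns of 4 members and marker genes; any other is said to be chosen with its values in view. Alternatives covered pseudocount, filter, scaling, moderation and each library left out. Leaving out controls 1 and 3 together was chosen after seeing the data. The plots come from matplotlib 3.10.9.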

Additional observations from a re-analysis of the deposited data

How the results depend on the processing

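Over all genes, 166 were higher and 72 lower. With all libraries at the same total these were 88 and 190, without a mean-variance trend 83 and 38, and without controls 1 and 3 together 97 and 8. With single libraries left out they ran from 11 to 266 and from 6 to 136. The 3 members called higher ran from 0 to 3 with single libraries left out, and none was called lower in any setting. The 6 listed genes called higher were 3 with no filter on low values, 0 without a mean-variance trend and 3 without controls 1 and 3 together, and ran from 0 to 11 with single libraries left out. Those called lower ran from 0 to 1, the 1 arising without control 3. No called gene among those tracked changed sign in any setting. Comp could not be fitted with a mean of at least 50 or without SuHx C. No paired analysis was possible because the columns of the SuHx libraries carry no replicate number of the labels. The numbers shared by the labels are not described as pairs either, and control and SuHx tissue was taken at different weeks. With 3 libraries a group, differences within the spread of control 1 or control 3 were not detectable.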
